A study of Mus musculus with 6 samples.

Results

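Ccl2, Ccl7, Ccl8, Ccl11, Ccl12, Ccl6 and Ccl9 are CC chemokines, small secreted proteins that draw monocytes, eosinophils and other white cells out of the blood. They were taken by symbol from the gene annotation of the count tables, which held all 7 of them among 32285 genes. Their unique molecular identifiers (UMIs, tags that mark single captured transcripts) were summed for each library and cell type. The study measured single-cell expression in lung cells that were freed with enzymes, cleared of red cells and held back by a magnetic kit for CD45, the surface protein of white blood cells. The groups were Nos1 knockout (KO) mice given lipopolysaccharide (LPS, the endotoxin of Gram-negative bacteria) and wild-type (WT) mice given LPS, with 2 libraries each, and KO and WT mice given vehicle, with 1 library each. LPS was injected intraperitoneally at 10 mg/kg, and all lungs were taken at 4 h. The labels write the wild-type strain as C65BL6 and state neither age nor sex. Nos1 encodes the neuronal nitric oxide synthase. Nothing in the labels says that the LPS libraries of a genotype came from separate animals, so every p-value here measures the spread between libraries, which may be technical.

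CC chemokines bind receptors with 7 membrane passes, coupled to G proteins, on the cells they attract. In the mouse Ccl2, Ccl7 and Ccl12 are ligands of Ccr2, the receptor that brings classical monocytes out of the bone marrow and into inflamed tissue. Ccl11 (eotaxin) is a ligand of Ccr3, the main chemokine receptor of eosinophils, and mouse Ccl8 is a ligand of Ccr8. Ccl6 and Ccl9 are ligands of Ccr1, carried by neutrophils, monocytes and macrophages. In the GENCODE M21 annotation of GRCm38 all 7 genes lie on chromosome 11, in a pair of groups. Ccl2 (chr11:82035571-82037453), Ccl7 (chr11:82045712-82047525), Ccl11 (chr11:82057823-82062955), Ccl12 (chr11:82101845-82103400) and Ccl8 (chr11:82115185-82116799) follow each other on the plus strand. Ccl9 (chr11:83572919-83578636) and Ccl6 (chr11:83587882-83593087) lie on the minus strand, with 1456 kb between the end of Ccl8 and Ccl9. The longest run of bases shared by any 2 members' transcripts was 25, between Ccl6 and Ccl9. Ccl2 overlaps the opposite-strand gene Gm17268, which held 0 UMIs against 80021 for Ccl2, and Ccl6 overlaps the opposite-strand gene E230016K23Rik, which held 723 UMIs against 637237 for Ccl6. The sources used here do not say whether counting used strand, so reads of an overlapping pair cannot be told apart.

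The promoters of 4 members had an entry in the RefSeq sequence table, and they are shown because they stand for both gene groups: Ccl12 and Ccl8 for the first, Ccl9 and Ccl6 for the second. Each runs 5′ to 3′ on the gene's strand over 250 bases before the start site and 50 after it, in GRCm38.p6, and capitals mark the motif matches.
Ccl12, chr11:82101595-82101894, plus strand: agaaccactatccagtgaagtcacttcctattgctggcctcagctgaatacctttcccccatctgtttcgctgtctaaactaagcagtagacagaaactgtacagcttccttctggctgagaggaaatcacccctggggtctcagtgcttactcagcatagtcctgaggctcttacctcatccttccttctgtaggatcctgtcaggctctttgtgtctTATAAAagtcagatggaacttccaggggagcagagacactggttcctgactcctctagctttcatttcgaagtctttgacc
Ccl8, chr11:82114935-82115234, plus strand: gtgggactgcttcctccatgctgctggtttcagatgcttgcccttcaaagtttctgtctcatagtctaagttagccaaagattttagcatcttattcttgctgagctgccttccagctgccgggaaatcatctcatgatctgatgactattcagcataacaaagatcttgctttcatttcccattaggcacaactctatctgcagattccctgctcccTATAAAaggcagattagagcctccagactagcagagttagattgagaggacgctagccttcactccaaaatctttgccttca
Ccl9, chr11:83578587-83578886, minus strand: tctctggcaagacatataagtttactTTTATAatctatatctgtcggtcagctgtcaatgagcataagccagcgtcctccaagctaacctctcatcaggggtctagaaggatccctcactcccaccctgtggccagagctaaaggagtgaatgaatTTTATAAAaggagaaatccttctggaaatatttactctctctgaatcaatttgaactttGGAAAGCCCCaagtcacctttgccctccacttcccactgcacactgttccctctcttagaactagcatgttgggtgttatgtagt
Ccl6, chr11:83593038-83593337, minus strand: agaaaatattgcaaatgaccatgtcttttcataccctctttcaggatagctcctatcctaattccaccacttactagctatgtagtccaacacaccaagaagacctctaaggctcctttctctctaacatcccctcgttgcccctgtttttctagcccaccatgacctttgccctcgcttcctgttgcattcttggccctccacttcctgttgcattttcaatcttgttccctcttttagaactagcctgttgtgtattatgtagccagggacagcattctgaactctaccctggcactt
Both strands were searched for a TATA box (TATAAA), a GAS element (TTCNNNGAA), an interferon-stimulated response element (ISRE) and the kB motif of NF-kB. Ccl12 and Ccl8 each held 1 TATAAA, at positions -31 and -32 from the start site. Ccl9 held 3 TATAAA matches, a pair of which overlapped, and 1 kB match at -35 on the strand opposite to the gene. Ccl6 held none of the motifs, and none of the 4 promoters held a GAS or ISRE match. Of 32817 promoters of the same length, 13.6% held a TATAAA, 5.56% a kB match, 8.29% a GAS match and 3.43% an ISRE match.

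The 6 libraries held 64428 cell barcodes and between 55361477 and 115225284 UMIs each. After filters and removal of likely doublets 56563 cells remained, of which 50595 fell in clusters that carried the markers of 1 of 14 cell types. Any pair of libraries shared 20 to 35 barcodes, at most 0.336% of the smaller one. The median mitochondrial share per cell was 2.07% and 2.25% in the KO LPS libraries and 0.588% and 0.870% in the WT LPS libraries, against 4.31% in KO vehicle and 4.45% in WT vehicle. Nos1, the targeted gene, had 4 and 3 UMIs in KO LPS, 0 and 1 in WT LPS, 4 in KO vehicle and 2 in WT vehicle, so it checks no label. Transcripts of the X-linked Xist and of Y-linked genes, which mark female and male cells, divided the libraries in a way the labels do not give. In the KO LPS libraries 31.4% and 32.7% of cells had Xist alone and 21.9% and 19.6% had Y-linked transcripts alone. In the WT LPS libraries 50.1% and 47.7% had Xist alone and at most 0.0406% had Y-linked transcripts alone. Cells with both made up 4.38% and 4.09% in KO LPS and at most 0.0203% in WT LPS. Of the KO vehicle cells 78.0% had Xist alone, and of the WT vehicle cells 46.7% had Y-linked transcripts alone. The KO LPS libraries therefore held cells of each mark, and KO and WT under LPS cannot be told apart from this mix except within Xist-only cells, a restriction chosen after the data were seen and given for part of the results. Cells with Xist UMIs can also differ from cells with neither mark, as given below for monocytes. Eosinophils, the cells Ccl11 is named for, formed no cluster: the eosinophil peroxidase gene Epx had 1 UMI in all libraries, and no cell carried 3 of the 5 eosinophil markers. How many eosinophils would show 3 markers at this depth was not measured.

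Each member was carried mainly by 1 or 2 cell types, and these differed between members. With the 4 LPS libraries weighted equally, Ccl2 averaged 13.8 UMIs per cell in classical monocytes, the Ly6C-high inflammatory monocytes, and 5.60 in stromal cells. Ccl7 averaged 11.3 UMIs per cell in interstitial macrophages, the complement C1q-expressing macrophages of the lung tissue, and 3.49 in classical monocytes. Ccl12 was divided in the same way, with 16.5 UMIs per cell in interstitial macrophages and 5.00 in classical monocytes. Ccl8 averaged 1.64 UMIs per cell in interstitial macrophages, with 0.0240 in dendritic cells as the next type. Ccl11 averaged 0.968 UMIs per cell in stromal cells, with 0.0365 in interstitial macrophages next. Ccl6 averaged 107 UMIs per cell in alveolar macrophages, the resident macrophages of the air space, and 7.12 in interstitial macrophages. Ccl9 averaged 16.5 UMIs per cell in alveolar macrophages and 14.4 in interstitial macrophages. When each cell was thinned to 2000 UMIs, 5 of the 7 members kept the same leading type. The exceptions were Ccl2, with 2.60 UMIs per cell in stromal cells and 1.61 in classical monocytes, and Ccl9, with 2.44 in interstitial and 2.43 in alveolar macrophages.

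**Figure D1:**
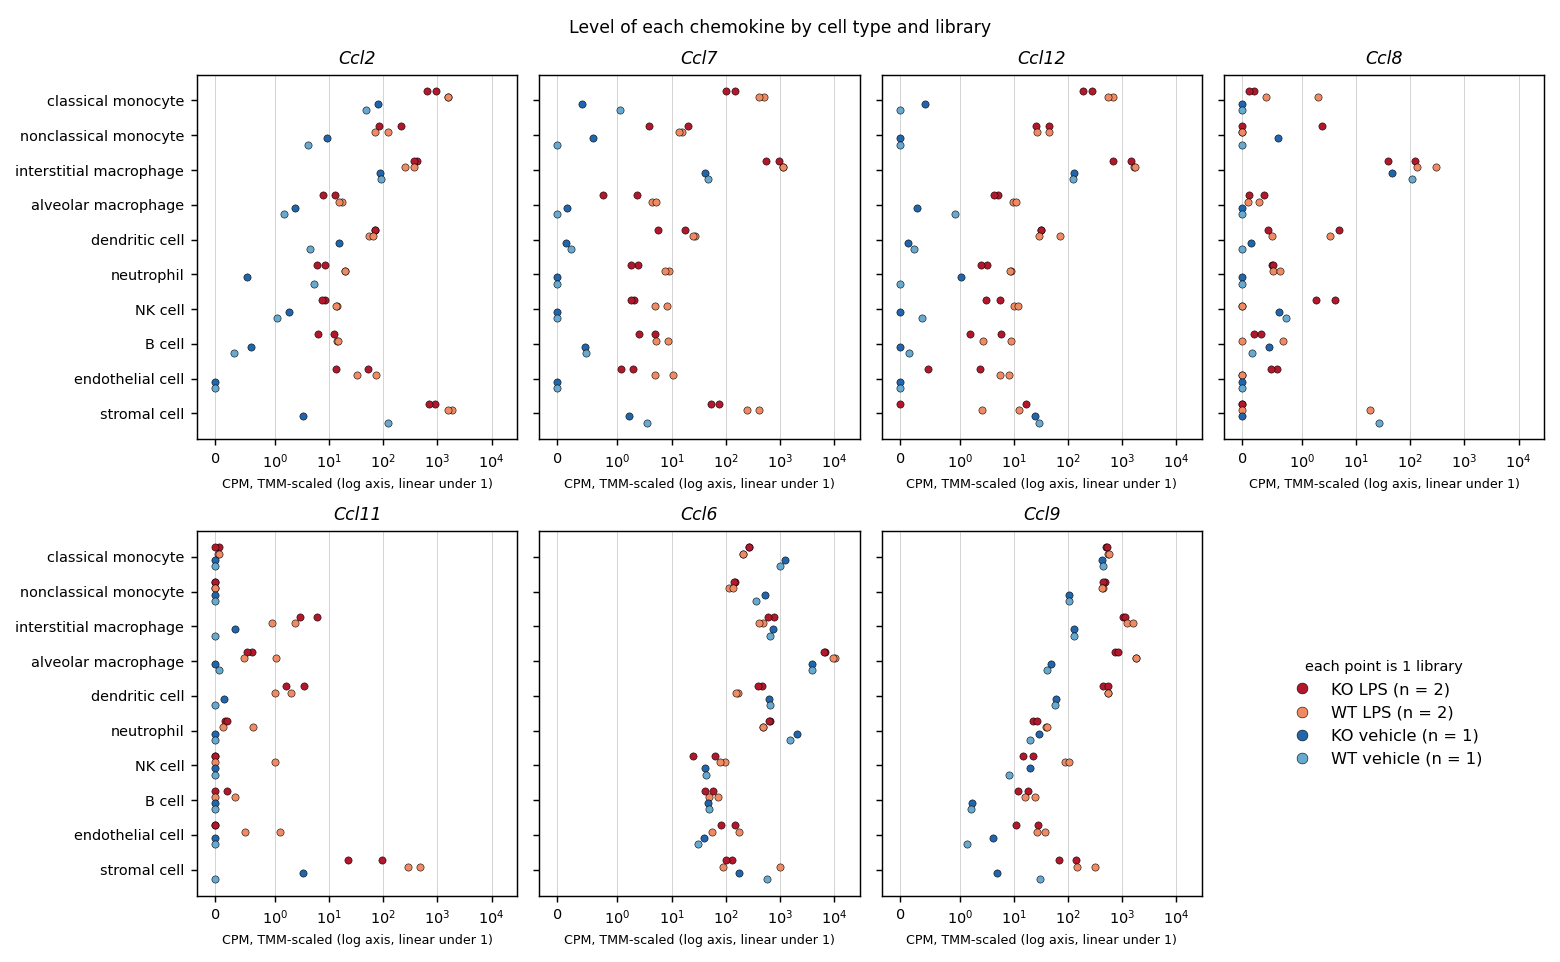
Levels of the 7 chemokines in the 10 tested cell types, in CPM (UMIs of a gene scaled to the total of the cell type in the library) after TMM scaling, which adjusts for composition, 1 point per library. Ccl2, Ccl7 and Ccl12 are highest in classical monocytes, interstitial macrophages and, for Ccl2 and Ccl7, stromal cells, Ccl8 in interstitial macrophages, Ccl11 in stromal cells, and Ccl6 in alveolar macrophages.

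B cells, taken as cells that should lack the Ccr2 ligands, serve as a guide to free RNA from lysed cells. Under LPS 1.15% to 6.13% of B cells carried a Ccl2 UMI, at a median depth of 2249 to 4273 UMIs per cell, against 48.5% to 56.0% of classical monocytes. In plain CPM, without TMM scaling, Ccl2 in alveolar macrophages, neutrophils and NK cells stood at 0.54 to 1.21 times the B cell level of the same LPS library. The same ratio was 0.30 to 1.06 for Ccl7 and 0.42 to 3.74 for Ccl12, the last over B cell sums of 5 to 30 UMIs. Per cell the alveolar macrophages stood higher for Ccl2 and Ccl12. In WT LPS replicate 1, 945 Xist-only alveolar macrophages held 243 Ccl2 and 132 Ccl12 UMIs, and 572 Xist-only B cells held 42 and 8. The median depths of these cells were 15701 and 4523.5 UMIs. Whether such levels exceed free RNA was not tested. Values of these 3 ligands in B cells, NK cells, alveolar macrophages and neutrophils are counted below and not read as expression.

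The cell types that supplied the transcripts differed between LPS and vehicle libraries. Classical monocytes held 77.7% and 70.8% of all Ccl2 UMIs of the KO LPS libraries and 84.3% and 84.7% of those of the WT LPS libraries, against 26.9% in KO vehicle and 17.0% in WT vehicle. Interstitial macrophages held 3.20% and 3.62% in KO LPS and 0.794% and 1.09% in WT LPS, against 35.5% in KO vehicle and 52.6% in WT vehicle. For Ccl7 classical monocytes held 52.8% and 51.8% in KO LPS and 69.0% and 68.3% in WT LPS, against 0.704% in KO vehicle and 1.41% in WT vehicle, where interstitial macrophages held 88.7% and 93.0%. Monocytes thus carried most of these transcripts in LPS libraries and almost none of Ccl7 in vehicle libraries. These shares also follow the numbers of cells recovered, which were 1198, 953, 1344 and 1460 classical monocytes in the 4 LPS libraries, against 329 in KO vehicle and 316 in WT vehicle. The shares of Ccl8 in interstitial macrophages, between 62.7% and 94.2% in all 6 libraries, showed no such exchange.

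**Figure D2:**
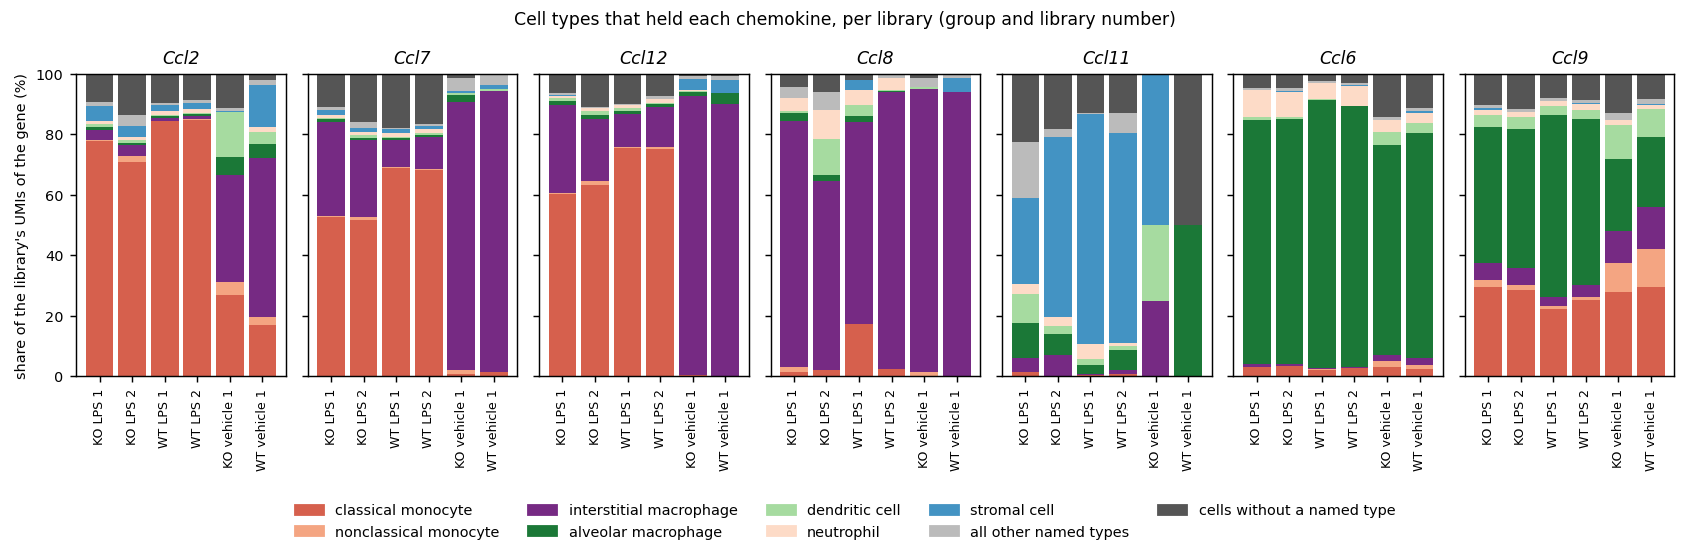
Share of each chemokine's UMIs held by each cell type, in percent, for the 6 libraries. Classical monocytes take most of Ccl2, Ccl7 and Ccl12 in the LPS libraries and interstitial macrophages take most of Ccl7 and Ccl12 in the vehicle libraries, while the Ccl11 shares of the vehicle libraries rest on 4 UMIs in KO vehicle and 2 in WT vehicle.

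The first comparison asked which members responded to LPS, averaged over genotypes. Of 70 pairs of member and cell type, 55 passed the low-count filter, and by edgeR's quasi-likelihood test 45 were higher and 5 were lower under LPS at a Benjamini-Hochberg adjusted p under 0.05. Over all genes and the same 10 cell types, 29.2% of tests were called higher and 26.8% lower. Of the 45 higher pairs 11 were Ccl2, Ccl7 or Ccl12 in B cells, NK cells, alveolar macrophages or neutrophils, which are not read as expression. A further 2 of the higher pairs were Ccl7 and Ccl12 in endothelial cells, at 0.21 to 1.09 and 0.28 to 2.65 times the B cell level in plain CPM, and these are not read as expression either. The higher pairs also include Ccl9 in B cells, the reference type. Ccl6 in NK cells and Ccl9 in neutrophils are among them too, near the B cell level under LPS (values below). Endothelial Ccl9 and Ccl6 overlapped the B cell values given below. In Xist-only cells endothelial Ccl9 had 8.31 and 32.3 plain CPM in KO LPS and 34.5 and 22.6 in WT LPS. Endothelial Ccl6 had 40.5 and 33.2 in KO LPS and 159.6 and 43.3 in WT LPS. In KO LPS replicate 1 Xist-only nonclassical monocytes had 1.59 plain CPM of Ccl7, against 4.68 in B cells. In the other LPS libraries they stood above B cells. Whether these pairs exceed free RNA was not tested. The 5 lower pairs were all Ccl6, in neutrophils, classical and nonclassical monocytes, dendritic cells and interstitial macrophages. The WT vehicle library was Y-marked and the WT LPS libraries Xist-marked, so in WT treatment and mark cannot be told apart. In KO both vehicle and LPS libraries held Xist-only cells. Each vehicle group had 1 library, so the test took its spread from the LPS libraries, and the spread between vehicle libraries was not measured. Log2 changes below are given with a standard error, taken as the size of the change over the square root of the test's F statistic.

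**Figure D3:**
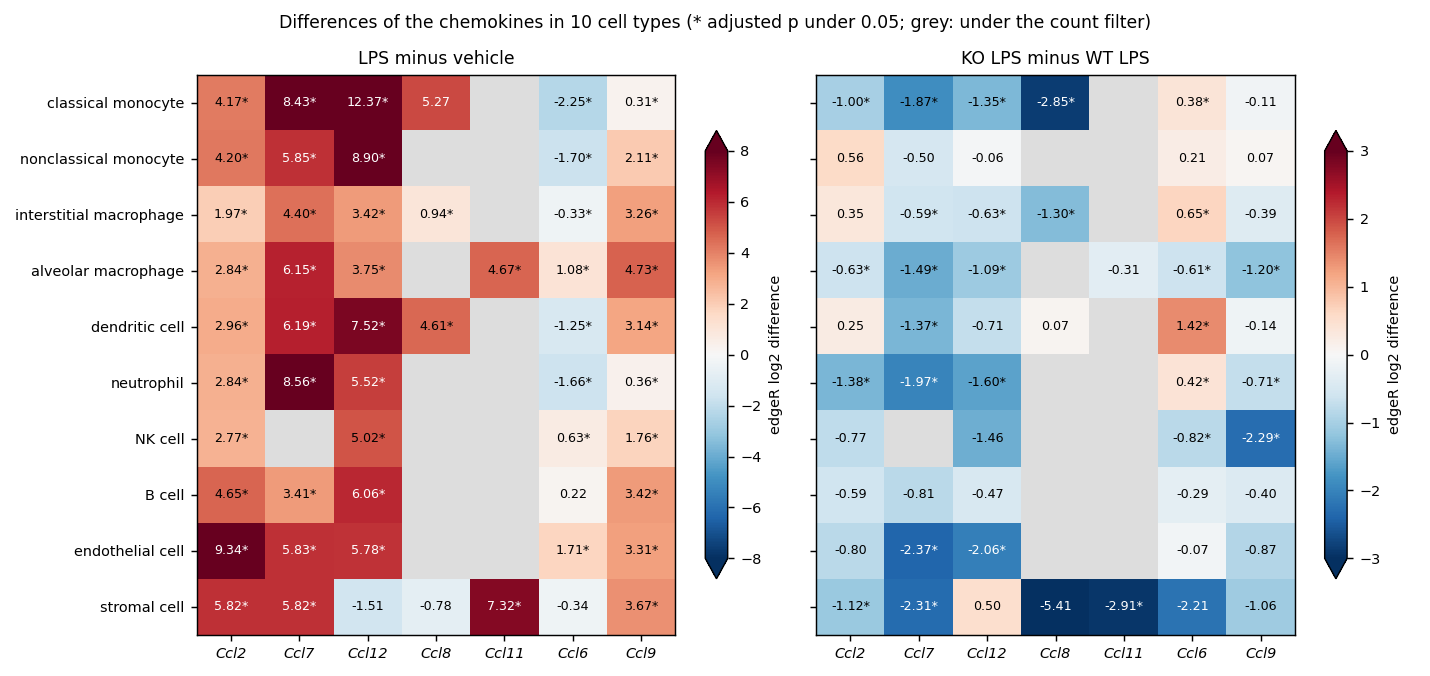
Log2 differences of the 7 chemokines in each tested cell type, LPS minus vehicle and KO LPS minus WT LPS, with stars at an adjusted p under 0.05 (edgeR's quasi-likelihood test). Members other than Ccl6 are mostly higher under LPS, and under LPS 24 pairs are lower and 4 higher in KO than in WT; fitted values of members with 0 vehicle UMIs depend on the prior count.

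Among the Ccr2 ligands, Ccl2 had a level in classical monocytes of 927 and 643 CPM (TMM-scaled) in KO LPS and 1558 and 1595 CPM in WT LPS, against 81.3 CPM in KO vehicle and 47.1 CPM in WT vehicle. All 4 LPS libraries lay above both vehicle libraries. The log2 change was 4.17 ± 0.16 (adjusted p = 1.03e-10, edgeR). In nonclassical monocytes, the patrolling monocytes, Ccl2 had 83.9 and 212 CPM in KO LPS and 69.8 and 121 CPM in WT LPS, against 9.17 CPM in KO vehicle and 4.07 CPM in WT vehicle. Here the change was 4.20 ± 0.25 (adjusted p = 8.85e-25, edgeR). Interstitial macrophages began from a higher vehicle level: Ccl2 had 417 and 362 CPM in KO LPS and 252 and 363 CPM in WT LPS, against 85.5 CPM in KO vehicle and 91.3 CPM in WT vehicle. Their change of 1.97 ± 0.15 also passed the test (adjusted p = 7.11e-12, edgeR).

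In stromal cells, the fibroblasts and mural cells that passed through the CD45 selection, Ccl2 had 884 and 699 CPM in KO LPS and 1890 and 1555 CPM in WT LPS, against 3.28 CPM in KO vehicle and 122 CPM in WT vehicle. The WT vehicle value came from 4 of 104 cells. Ccl2 rose by 5.82 ± 0.26 on the log2 scale in these cells (adjusted p = 1.08e-08, edgeR). Endothelial cells had 13.4 and 51.3 CPM in KO LPS and 32.5 and 74.0 CPM in WT LPS, with 0 UMIs in both vehicle libraries, so that the level was at least 38.8-fold higher against a floor of 3 UMIs over the vehicle libraries. In 1 of the KO LPS libraries this level was 0.99 times that of B cells in plain CPM, and in the other 7.49 times. Dendritic cells had 71.4 and 69.1 CPM in KO LPS and 54.1 and 65.2 CPM in WT LPS, against 15.5 CPM in KO vehicle and 4.43 CPM in WT vehicle, a change of 2.96 ± 0.17 (adjusted p = 2.18e-11, edgeR). In KO LPS replicate 2, 68 of these Ccl2 UMIs came from 10 cells with both Xist and Y-linked transcripts, and 13 from 72 Xist-only cells. In KO LPS replicate 1, 77 came from 24 cells with both and 84 from 92 Xist-only cells. Within Xist-only cells, where the change comes from KO alone, the log2 change of Ccl2 was 3.25 ± 0.30 for classical monocytes (adjusted p = 1.32e-05), 1.75 ± 0.42 for dendritic cells (adjusted p = 0.00380) and 0.995 ± 0.28 for interstitial macrophages (adjusted p = 0.0155, edgeR).

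Ccl7, which sits next to Ccl2 and also binds Ccr1 and Ccr3, and Ccl12 were nearly absent from classical monocytes of vehicle libraries. Ccl7 had 151 and 100.5 CPM in KO LPS classical monocytes and 513 and 413 CPM in WT LPS, with 3 UMIs in the vehicle libraries together. The pooled ratio was 450 (95% counting interval 154 to 2184). Ccl12 had 283 and 193 CPM in KO LPS and 667 and 553 CPM in WT LPS, with 1 vehicle UMI and a pooled ratio of 1912 (343 to 75534). Both passed edgeR's test (adjusted p = 2.92e-09 and 4.68e-10), and neither had vehicle and LPS libraries that overlapped. In interstitial macrophages both were present without LPS. Ccl7 had 974 and 547 CPM in KO LPS and 1160 and 1153 CPM in WT LPS, against 41.9 CPM in KO vehicle and 47.1 CPM in WT vehicle, and rose by 4.40 ± 0.19 (adjusted p = 1.77e-17, edgeR). Ccl12 had 1490 and 693 CPM in KO LPS and 1667 and 1725 CPM in WT LPS, against 130 CPM in KO vehicle and 125 CPM in WT vehicle, and rose by 3.42 ± 0.20 (adjusted p = 1.44e-14, edgeR). KO LPS replicate 2 was the lowest LPS library for both genes in these cells.

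Stromal cells separated Ccl7 from Ccl12. Ccl7 had 76.1 and 53.5 CPM in KO LPS stromal cells and 416 and 252 CPM in WT LPS, with 3 vehicle UMIs and a pooled ratio of 62.0 (21.03 to 302). Ccl12 had 16.9 and 0 CPM in KO LPS and 2.60 and 12.6 CPM in WT LPS, against 24.6 CPM in KO vehicle and 28.6 CPM in WT vehicle, and its change of -1.51 ± 0.69 did not pass the test (adjusted p = 0.124, edgeR). The vehicle values of Ccl12 came from 2 of 125 cells in KO and 2 of 104 cells in WT. Dendritic cells had Ccl7 at 5.53 to 27.6 CPM and Ccl12 at 29.6 to 72.1 CPM over the LPS libraries, each from 2 vehicle UMIs. In plain CPM these levels were 0.98 to 6.17 times the B cell level for Ccl7, with KO LPS replicate 1 the lowest, and 2.96 to 23.6 times for Ccl12. In KO LPS replicate 2, the 10 dendritic cells with both Xist and Y-linked transcripts held 10 Ccl7 and 31 Ccl12 UMIs. The 72 Xist-only ones held 3 and 4. In nonclassical monocytes Ccl12 had 25.6 and 44.1 CPM in KO LPS and 26.6 and 43.8 CPM in WT LPS, at least 73.0-fold above the floor of the vehicle libraries, which held 0 UMIs.

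Ccl8 and Ccl11 were the most restricted members. Ccl8 in interstitial macrophages had 122 and 38.8 CPM in KO LPS and 133 and 298 CPM in WT LPS, against 45.3 CPM in KO vehicle and 110 CPM in WT vehicle. The groups overlapped, and the change of 0.94 ± 0.25 (adjusted p = 0.00236, edgeR) no longer passed the test without KO LPS replicate 1 (0.37) or without WT vehicle replicate 1 (0.93). The same held with cells gated one by one (0.30), without doublet removal (0.11) and with plain CPM scaling (0.47). Between 13.7% and 34.4% of interstitial macrophages carried a Ccl8 UMI in any library, against at most 0.411% of classical monocytes. Ccl11 in stromal cells had 22.6 and 95.8 CPM in KO LPS and 478 and 285 CPM in WT LPS, against 3.28 CPM in KO vehicle and 0 CPM in WT vehicle. With 2 vehicle UMIs the pooled ratio was 92.7 (25.5 to 768; adjusted p = 1.13e-04, edgeR). Few cells carried the gene: 6 of 219 and 11 of 111 stromal cells in KO LPS, 4 of 88 and 15 of 88 in WT LPS, and 2 of 125 in KO vehicle. In WT LPS replicate 1 those 4 cells held 184 UMIs. The shares of stromal cells with Ccl11 overlapped between KO LPS and WT LPS. Whether the groups differed in producing cells or in RNA per producing cell was not tested.

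Of the Ccr1 ligands, Ccl6 moved in opposite directions in different cell types. In alveolar macrophages Ccl6 had 6723 and 6546 CPM in KO LPS and 10700.3 and 9602 CPM in WT LPS, against 3872 CPM in KO vehicle and 3904 CPM in WT vehicle. It rose there by 1.08 ± 0.08 (adjusted p = 1.59e-09, edgeR), and 99.7% to 100% of alveolar macrophages carried it in every library. In classical monocytes Ccl6 had 267 and 274 CPM in KO LPS and 208 CPM in both WT LPS libraries, against 1245 CPM in KO vehicle and 1026 CPM in WT vehicle. The change was -2.25 ± 0.04 (adjusted p = 1.75e-13, edgeR). Neutrophils had 673 and 632 CPM in KO LPS and 498 and 481 CPM in WT LPS, against 2102 CPM in KO vehicle and 1528 CPM in WT vehicle, a change of -1.66 ± 0.04 (adjusted p = 3.66e-17, edgeR). Nonclassical monocytes fell by 1.70 ± 0.09 (adjusted p = 2.03e-27) and dendritic cells by 1.25 ± 0.08 (adjusted p = 2.19e-10) on the log2 scale, while B cells, at 41.3 to 73.0 CPM in all 6 libraries, did not pass the test (0.22 ± 0.13, adjusted p = 0.131, edgeR). In interstitial macrophages the change was -0.33 ± 0.12 (adjusted p = 0.0224, edgeR), and it was 0.31 when doublets were not removed, 0.0053 when cells were gated one by one, without clusters, and -0.08 without WT vehicle replicate 1, none past the test.

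Ccl9 was higher under LPS in all macrophage, dendritic cell and monocyte populations. In alveolar macrophages it had 727 and 845 CPM in KO LPS and 1826 and 1794 CPM in WT LPS, against 49.0 CPM in KO vehicle and 41.3 CPM in WT vehicle. It rose by 4.73 ± 0.08 (adjusted p = 1.16e-18, edgeR). Alveolar macrophages with a Ccl9 UMI made up 70.2% and 69.8% in KO LPS and 93.3% and 91.1% in WT LPS, against 27.6% in KO vehicle and 19.0% in WT vehicle. Interstitial macrophages had 1020 and 1144 CPM in KO LPS and 1252 and 1585 CPM in WT LPS, against 128 CPM in KO vehicle and 131 CPM in WT vehicle, and changed by 3.26 ± 0.14 (adjusted p = 8.73e-18, edgeR). Dendritic cells changed by 3.14 ± 0.11 (adjusted p = 1.13e-14, edgeR). The classical monocytes carried Ccl9 at a high level in every library, 505 and 531 CPM in KO LPS and 543 and 579 CPM in WT LPS, against 424 CPM in KO vehicle and 449 CPM in WT vehicle. Their change of 0.31 ± 0.05 (adjusted p = 1.73e-04, edgeR) was 0.06 and no longer past the test with plain CPM scaling. In neutrophils Ccl9 stayed between 19.7 and 40.4 CPM in all libraries, and its change of 0.36 ± 0.14 (adjusted p = 0.0428, edgeR) became -1.20 with plain CPM scaling. That scaling lowers the median of all genes by 1.56 in LPS neutrophils, and by 0.11 to 0.66 in the other types.

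The second comparison set KO against WT among the LPS libraries. By edgeR's quasi-likelihood test 24 of the 55 pairs were lower and 4 higher in KO LPS than in WT LPS, where 10.6% of all tests were called lower and 9.02% higher. Of the 24 lower pairs 6 were Ccl2, Ccl7 or Ccl12 in alveolar macrophages or neutrophils and 2 were Ccl7 and Ccl12 in endothelial cells. None of these is read as expression. The others were 4 in classical monocytes, 3 each in interstitial macrophages and stromal cells, 2 each in alveolar macrophages and NK cells, and 1 each in dendritic cells (Ccl7) and neutrophils (Ccl9). In Xist-only cells, NK cell Ccl6 had 67.9 and 24.1 plain CPM in KO LPS and 89.1 and 59.1 in WT LPS. B cell Ccl6 had 61.5 and 38.3 in KO LPS and 65.8 and 45.2 in WT LPS. Neutrophil Ccl9 had 16.5 and 9.80 in KO LPS and 23.1 and 23.8 in WT LPS. B cell Ccl9 had 22.8 and 11.5 in KO LPS and 13.5 and 23.4 in WT LPS. Both pairs thus lay near the B cell level. The 4 higher pairs were all Ccl6, in classical monocytes, interstitial macrophages, dendritic cells and neutrophils. In KO LPS, cells with both Xist and Y-linked transcripts held much of this Ccl6 in some types. Interstitial macrophages with both held 865 and 237 UMIs in 20 and 15 cells, against 175 and 150 in 43 and 33 Xist-only cells. Dendritic cells with both held 581 and 150 in 24 and 10 cells, against 434 and 255 in 92 and 72. Neutrophils with both had 453 and 390 plain CPM, against 467 and 427 with Xist alone. In classical monocytes the 3 Ccr2 ligands were lower in KO, Ccl2 2.00-fold (log2 standard error 0.11, adjusted p = 2.74e-05), Ccl7 by a log2 difference of -1.87 ± 0.14 (adjusted p = 8.08e-07) and Ccl12 by one of -1.35 ± 0.13 (adjusted p = 7.12e-06, edgeR). For each of the 3 both KO LPS libraries lay below both WT LPS libraries. The KO and WT monocytes lay largely in different clusters. Cluster 15 held 523 and 390 KO LPS and 55 and 80 WT LPS cells, and cluster 4 held 393 and 314 KO LPS and 935 and 991 WT LPS cells. Within cluster 15 Ccl2 had 1013 and 822 plain CPM in KO LPS, against 2232 and 2107 plain CPM in WT LPS. In cluster 4 it had 423 and 324 plain CPM in KO LPS, against 628 and 703 plain CPM in WT LPS. Both KO LPS libraries also lay below both WT LPS libraries for Ccl7 and Ccl12 within each of these clusters. The share of classical monocytes with a Ccl7 UMI was 18.4% and 15.1% in KO LPS, against 32.1% and 28.5% in WT LPS, while the share with a Ccl2 UMI was 53.1% and 48.5% in KO LPS, against 56.0% and 52.7% in WT LPS. The median depth of the monocytes that carried a single mark was 7588 to 11402 UMIs in KO LPS, against 9128 and 13347 in WT LPS. Ccl8, with 46 UMIs in the LPS monocytes together, was also called lower (-2.85 ± 0.86, adjusted p = 0.0232, edgeR), a call lost without KO LPS replicate 1 (-3.36). Across this cell type 16.2% of genes were called lower and 15.8% higher.

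Nonclassical monocytes had no called member in this comparison, where 2.79% of their genes were called lower and 2.56% higher. Their Ccl2 difference was 0.56 ± 0.22 (adjusted p = 0.127) and their Ccl9 difference 0.07 ± 0.10 (adjusted p = 0.812, edgeR). Within Xist-only cells the Ccl2 difference was 1.58 ± 0.41 (adjusted p = 0.0501), and Ccl9 was called higher in KO LPS (0.62 ± 0.15, adjusted p = 0.0298, edgeR). Interstitial macrophages were lower in KO for Ccl7 (-0.59 ± 0.17, adjusted p = 0.0260), Ccl12 (-0.63 ± 0.19, adjusted p = 0.0394) and Ccl8 (-1.30 ± 0.30, adjusted p = 0.00607), and not for Ccl2 (0.35 ± 0.16, adjusted p = 0.210, edgeR). All 3 of these calls were lost without KO LPS replicate 2, where Ccl7 stood at -0.24, Ccl12 at -0.18 and Ccl8 at -0.79. Each of them was also lost with DESeq2, and those of Ccl12 (-0.098) and Ccl8 (-0.58) without doublet removal. In these cells 4.11% of genes were called lower.

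In stromal cells, where 0.462% of genes were called lower, Ccl2 (-1.12 ± 0.19, adjusted p = 0.0198), Ccl7 (-2.31 ± 0.28, adjusted p = 0.00484) and Ccl11 (-2.91 ± 0.46, adjusted p = 0.0140, edgeR) were lower in KO LPS. The Ccl2 call was lost without KO LPS replicate 1 (-1.30) or replicate 2 (-0.96), while DESeq2 gave Ccl7 and Ccl11 no adjusted p in these cells. Too few stromal cells had Xist alone for a test within them, and their levels are given below. Alveolar macrophages were lower in KO for Ccl9 (-1.20 ± 0.07, adjusted p = 6.89e-10) and Ccl6 (-0.61 ± 0.09, adjusted p = 2.53e-05, edgeR), with both KO LPS libraries below both WT LPS libraries. Here too the clusters differed, with 569 and 386 KO LPS and 31 and 32 WT LPS cells in cluster 1 and 471 and 422 KO LPS and 862 and 827 WT LPS cells in cluster 6, where Ccl9 had 1389 and 1442 plain CPM in KO LPS, against 1829 and 1772 plain CPM in WT LPS. In the alveolar macrophages 18.9% of genes were called lower. Dendritic cells carried more Ccl6 in KO LPS, 473 and 398 CPM, than in WT LPS, 169 and 158 CPM, a difference of 1.42 ± 0.11 (adjusted p = 1.87e-07, edgeR) that was -0.41 when doublets were not removed. Cluster 29, which held 244 and 225 of the vehicle dendritic cells of KO and WT, took 27 and 18 cells in KO LPS and 0 and 1 in WT LPS. In cluster 20, with most LPS dendritic cells, Ccl6 had 466 and 248 plain CPM in KO LPS, against 138 and 128 plain CPM in WT LPS. NK cells carried Ccl9 at 22.7 and 14.5 CPM in KO LPS, against 87.7 and 105 CPM in WT LPS (-2.29 ± 0.27, adjusted p = 4.47e-07, edgeR). The B cells of the same libraries had 18.2 and 11.8 CPM of Ccl9 in KO LPS, against 16.4 and 25.0 CPM in WT LPS. Among the LPS libraries only the WT NK cells thus stood well above the B cell level. Vehicle NK cells also stood above it, with 23.2 plain CPM in KO (Xist only) and 7.44 in WT (Y-linked only). Vehicle B cells of the same marks had 1.69 and 2.47 plain CPM.

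The mix of marks within the KO LPS libraries went with large differences between cells of 1 type and library. KO LPS alveolar macrophages with Xist alone had 1363 and 1365 plain CPM of Ccl9, and those with Y-linked transcripts alone had 146 and 129 plain CPM. WT LPS alveolar macrophages, which were Xist-marked, had 1681 and 1695 plain CPM, and vehicle alveolar macrophages had 53.5 plain CPM in KO (Xist only) and 42.8 plain CPM in WT (Y-linked only). The Y-marked KO LPS cells thus stood nearer to the vehicle than to the LPS level. Of the KO LPS alveolar macrophages with Y-linked transcripts alone, 699 lay in the cluster that held most vehicle alveolar macrophages, against 38 of those with Xist alone. Within Xist-only cells the KO difference was -0.27 ± 0.05 for Ccl9 (adjusted p = 0.00222) and -0.30 ± 0.07 for Ccl6 (adjusted p = 0.00628, edgeR), smaller than over all cells. Stromal Ccl2 was divided in the same direction, with 1263 and 803 plain CPM in Xist-only KO LPS cells and 131 and 6.94 plain CPM in Y-marked ones, in sums of 22 to 50 cells. Xist-only stromal cells of WT LPS had 1702 and 1391 plain CPM of Ccl2. In the Xist-only stromal cells Ccl7 had 91.9 and 58.4 plain CPM in KO LPS, against 469 and 193 plain CPM in WT LPS. Ccl11 had 19.1 and 166 plain CPM in KO LPS Xist-only stromal cells, against 447 and 157 plain CPM in WT LPS, so that the groups overlapped for Ccl11.

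Classical monocytes differed less by mark. Ccl2 was lower in the Xist-only KO LPS monocytes, 854 and 512 plain CPM, than in the Y-marked ones, 1142 and 815 plain CPM, and both were below the 1558 and 1586 plain CPM of WT LPS Xist-only monocytes. Ccl7 went the other way, with 245 and 156 plain CPM in Xist-only and 91.4 and 72.2 plain CPM in Y-marked KO LPS monocytes, against 432 and 391 plain CPM in WT LPS Xist-only monocytes. Within Xist-only monocytes all 3 Ccr2 ligands remained lower in KO LPS than in WT LPS. Their differences were -1.21 ± 0.17 for Ccl2 (adjusted p = 0.00234), -1.04 ± 0.16 for Ccl7 (adjusted p = 0.00295) and -1.03 ± 0.20 for Ccl12 (adjusted p = 0.00865, edgeR). Monocytes with neither mark were closer for Ccl2, at 713 and 628 plain CPM in KO LPS, against 850 and 867 in WT LPS. For Ccl7 they had 176 and 85.2 plain CPM in KO LPS, against 565 and 301 in WT LPS. Ccl12 had 240 and 193 plain CPM in them in KO LPS, against 744 and 487 in WT LPS. The Ccl9 difference in these monocytes was 0.36 ± 0.07 (adjusted p = 0.00707, edgeR) within Xist-only cells and -0.11 ± 0.05 (adjusted p = 0.115, edgeR) over all cells. Dendritic cell Ccl6 (1.39 ± 0.12, adjusted p = 1.09e-04) and NK cell Ccl9 (-2.27 ± 0.34, adjusted p = 0.00126, edgeR) were of similar size within Xist-only cells and over all cells. In interstitial macrophages, of which the KO LPS libraries held 43 and 33 with Xist alone, no member passed the test. The differences there were -0.50 for Ccl7, -0.53 for Ccl12, -1.52 for Ccl8 and -0.79 for Ccl2, the last against 0.35 over all cells (adjusted p = 0.289, 0.399, 0.0736 and 0.196, edgeR).

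**Figure D4:**
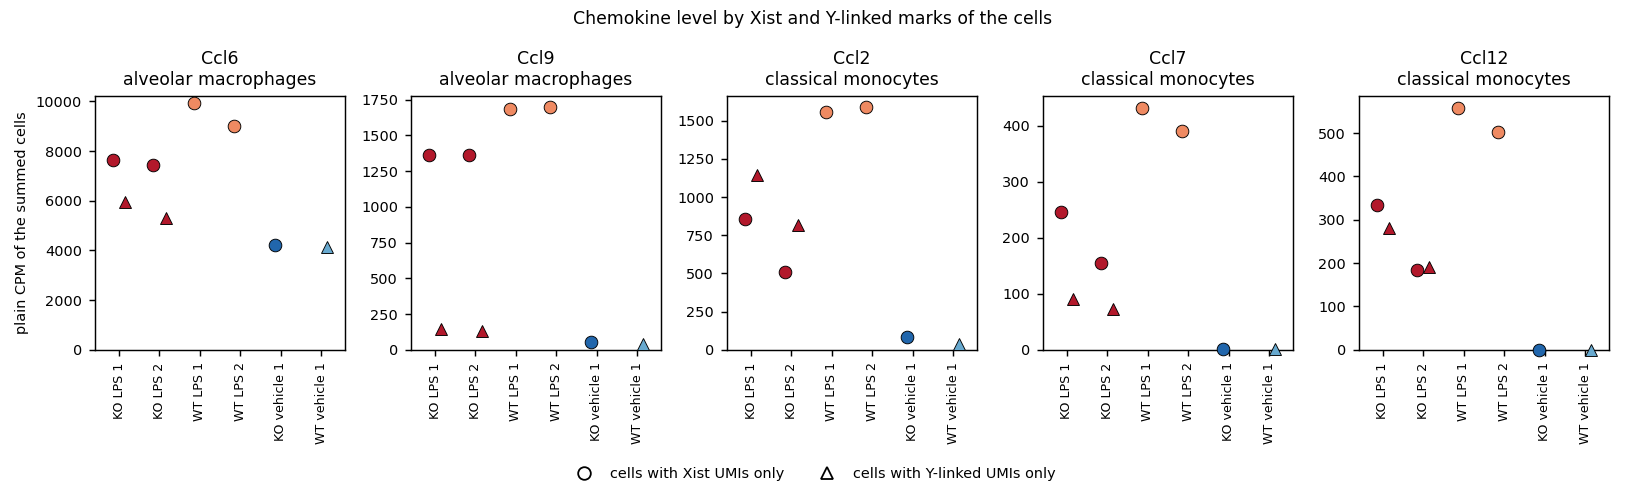
Levels in plain CPM by library and by the Xist or Y-linked mark of the cells, circles for Xist only and triangles for Y-linked only, in sums of at least 20 cells. In alveolar macrophages the Y-marked KO LPS cells lie near the vehicle libraries for Ccl9, while in classical monocytes all KO LPS points for Ccl2 lie below the WT LPS points.

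The third comparison tested whether the LPS response itself differed between genotypes, with 1 vehicle library a side. By edgeR's quasi-likelihood test the log2 change of 6 of the 55 pairs was lower in KO than in WT and that of 2 was higher, where 3.15% of all tests were called lower and 2.76% higher. In alveolar macrophages the rise of Ccl9 was smaller in KO (-1.45 ± 0.13, adjusted p = 1.70e-06) and so was that of Ccl6 (-0.60 ± 0.15, adjusted p = 0.0117, edgeR). Dendritic cell Ccl6, which was lower under LPS, fell less in KO (1.49, adjusted p = 4.69e-05, edgeR; -0.17 without doublet removal), with vehicle levels of 622 CPM in KO and 653 CPM in WT. Ccl2 in classical monocytes had a smaller response in KO (-1.79 ± 0.35, adjusted p = 0.00947, edgeR), and its vehicle levels differed the other way, 81.3 CPM in KO and 47.1 CPM in WT. In stromal cells the Ccl2 response was larger in KO (4.00 ± 0.59, adjusted p = 0.0201, edgeR), although its LPS level was lower. It rests on vehicle levels of 122 CPM in WT, from 4 of 104 cells, and 3.28 CPM in KO, from 2 of 125 cells. The difference in response cannot be estimated in Xist-only cells, as the WT vehicle library held almost none.

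The vehicle libraries, with 1 a side and different marks, allowed no test of genotype. Ccl8 in interstitial macrophages had 45.3 CPM in KO vehicle (95% Poisson interval 38.0 to 53.5), against 109.5 CPM in WT vehicle (97.6 to 122). Ccl7 and Ccl12 in the same cells had 41.9 (34.9 to 49.9) and 130 (118 to 144) CPM in KO vehicle, against 47.1 (39.4 to 55.8) and 125 (112 to 139) CPM in WT vehicle. Ccl6 in alveolar macrophages had 3872 CPM in KO vehicle (3843 to 3902), against 3904 CPM in WT vehicle (3873 to 3936). The intervals cover counting error only. Other members also differed between the vehicle libraries, as with stromal and classical monocyte Ccl2 and neutrophil Ccl6 above.

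Within a cell type the members were concentrated in different clusters. The clusters were made without these genes unless they were markers, and the levels are plain CPM over the 4 LPS libraries. Among classical monocytes Ccl2 reached 2425 CPM in cluster 24, whose leading genes were those of early neutrophil and monocyte granules (Prtn3, Mpo) and of cell division (Top2a, Ube2c). It had 1283 CPM in cluster 15, also led by Prtn3 and Elane, and 592 CPM in cluster 4, led by Ptx3 and Vcan. Ccl12 had 430, 388 and 516 CPM in the same 3 clusters, so its level changed less between them than that of Ccl2. Stromal cells divided by member: the mural cluster 43 had 1566 CPM of Ccl2, 15.7 CPM of Ccl7 and 5.22 CPM of Ccl11. The fibroblast cluster 31 had 1130 CPM of Ccl2, 205 CPM of Ccl7 and 205 CPM of Ccl11. Interstitial macrophage cluster 34 had 837 CPM of Ccl7, 1212 CPM of Ccl12, 291 CPM of Ccl2 and 128 CPM of Ccl8. A cluster with no name, 55, led by Prg4, Cxcl13, Alox15 and Selp, had 1026 CPM of Ccl7, 627 CPM of Ccl2, 998 CPM of Ccl9 and 0 CPM of Ccl8 in 96 cells.

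The neighbours Ccl2 and Ccl7 were found in the same cells more often one way than the other. Of the LPS classical monocytes with a Ccl7 UMI, 90.5% and 86.8% in KO LPS and 89.3% and 89.9% in WT LPS also had a Ccl2 UMI. Of those with a Ccl2 UMI, 31.4% and 27.1% in KO LPS and 51.1% and 48.6% in WT LPS also had a Ccl7 UMI. In interstitial macrophages 90.9% and 85.4% of the Ccl7 cells of KO LPS and 92.7% and 84.0% of those of WT LPS had a Ccl12 UMI. These shares follow depth and are given as a description. Over the 60 sums of library and cell type, which share libraries and depth, the gene most like Ccl2 among 7487 was Vcan (Pearson r 0.88), a proteoglycan gene of monocytes. Outside the 7 members Ccl7 was most like G530011O06Rik (0.89) and then C3ar1 (0.82), the receptor of the complement fragment C3a, which was also nearest to Ccl12 (0.90). Ccl8 was most like Folr2 (0.91), C1qc (0.87) and C1qa (0.85), markers of interstitial macrophages. Ccl11 was close to Ccl19 (0.88), Ccl6 to Arl11 (0.91) and Ccl9 to Ms4a6d (0.85). Between members, Ccl2 and Ccl7 (0.86) and Ccl7 and Ccl12 (0.85) were closest, and Ccl6 and Ccl9, though neighbours, had 0.52.

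The receptors were read beside their ligands. Of 9 receptor and scavenger genes 4 were tested in classical monocytes, where 3 were higher and 1 lower under LPS (32.4% and 26.9% of all genes of the cell type), with a median log2 change of 2.19, against 0.10 over all genes of the cell type. Ccr2, the receptor of Ccl2, Ccl7 and Ccl12, was the lower one, at 433 and 395 CPM in KO LPS and 359 and 349 CPM in WT LPS, against 1000.2 CPM in KO vehicle and 1290 CPM in WT vehicle (-1.57 ± 0.05, edgeR). Ccr1, the receptor of Ccl6 and Ccl9, had 288 and 296 CPM in KO LPS and 368 and 348 CPM in WT LPS, against 31.7 CPM in KO vehicle and 26.7 CPM in WT vehicle (3.47 ± 0.08, edgeR). Ccr1 and Ccr2 thus changed in opposite directions in these monocytes, and Ccr2 was higher in KO LPS than in WT LPS (0.23 ± 0.05, adjusted p = 0.00611) and Ccr1 lower (-0.30 ± 0.05, adjusted p = 9.16e-04, edgeR). In neutrophils Ccr1 had 1383 and 1386 CPM in KO LPS and 1484 and 1511 CPM in WT LPS, against 440 CPM in KO vehicle and 389 CPM in WT vehicle.

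Of 13 other CC chemokines 8 were tested in classical monocytes, where 6 were higher and 1 lower under LPS (32.4% and 26.9% of all genes), with a median of 6.12. In KO LPS 4 of these 8 were lower and 0 higher than in WT LPS (16.2% and 15.8% of all genes), where the members had 4 lower and 1 higher. Ccl5 had 4822 and 4925 CPM in KO LPS monocytes and 8791 and 8864 CPM in WT LPS, against 120 CPM in KO vehicle and 28.9 CPM in WT vehicle. Ccl3 had 473 and 471 CPM in KO LPS and 1213 and 1197 CPM in WT LPS, against 46.3 CPM in KO vehicle and 26.7 CPM in WT vehicle. Of 14 genes of LPS sensing and NF-kB signalling, 9 were higher and 2 lower under LPS in classical monocytes (median 1.09), beside the same 32.4% and 26.9% of all genes. In KO LPS 2 of them were higher and 9 lower than in WT LPS (median -0.35, against 0.01 over all genes). In alveolar macrophages 10 of 13 of them were higher and 1 lower under LPS (28.7% and 28.3% of all genes), and 1 was higher and 10 lower in KO LPS (15.8% and 18.9%). In interstitial macrophages 2 of 13 were lower and 0 higher in KO LPS (4.11% and 3.4% of all genes), and 4 of 8 other CC chemokines were lower and 1 higher. The higher one was Ccl17, at 534 and 2077 CPM in KO LPS, against 138 and 593 CPM in WT LPS (1.84 ± 0.40, edgeR).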

How the data were processed

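The authors deposited 1 gene by barcode matrix of raw UMI counts for each library. Per the submitters' processing notes, these counts were made with Cell Ranger 6.1.0 and mm10, and Seurat 4.1.0 and R 4.1.3 were used later. The chemokines and gene lists were chosen with earlier results of these data known. Cells with at least 200 genes and at most 10% mitochondrial UMIs were kept, and 61736 of 64428 barcodes passed. The cells with the highest Scrublet scores (scanpy 1.11.5) were removed, at 0.8% of cells per 1000 cells in a library. From 1945 variable genes, 30 principal components, 20 neighbours and Leiden resolution 1.5 (leidenalg 0.10.2) gave 66 clusters, named from fixed marker lists. There were 50 named clusters, 9 mixed ones and 7 without a name, and the last 2 kinds (3903 and 2065 cells) entered no test. Vehicle and LPS cells of a type often sat in different clusters, as did KO and WT LPS cells of some types. Free RNA was not subtracted.

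Counts were summed per library and cell type, and the test took the 10 types that had at least 30 cells in each library. The test was edgeR 4.0.16 in R 4.3.3 (quasi-likelihood, TMM scaling, low-count filter, 1 coefficient per group, 2 residual degrees of freedom), with Benjamini-Hochberg adjustment over all genes of a cell type at 0.05. All 7 members were named, and of every other list up to 4 genes with the smallest p. The closest genes were the 3 with the highest Pearson r of log2(CPM + 1), among genes with at least 50 CPM in a sum. Total counts per library limit the precision, and UMI intervals cover counting error only. A gene with 0 vehicle UMIs is given against a floor of 3 UMIs over the vehicle libraries, and 1 to 3 UMIs as a ratio with an exact 95% interval. The alternatives were DESeq2 1.42.0, plain CPM scaling, no low-count filter, stricter cell quality (at least 500 genes, at most 5% mitochondrial), cells kept without doublet removal, cells gated one by one on the marker lists, leaving out each library and a replicate block. Xist-only cells and a crossed block were added after the data were seen. The tests were also run on simulated counts of classical monocytes and interstitial macrophages, with changes placed on LPS alone. That run gave no recovery rate for KO against WT or for the difference in response. Replicate numbers were not taken as pairs, as nothing in the labels says that they mark a shared animal or batch.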

Additional observations from a re-analysis of the deposited data

Results flagged for a closer look

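In 8 pairs of chemokine and cell type the LPS response differed between the genotypes, by the test of the difference itself (edgeR's quasi-likelihood test, 1 vehicle library a side). The values are log2 differences, KO response minus WT response. A negative value means a smaller rise, a larger fall, or a fall in KO beside a rise in WT. The value was negative for Ccl9 in alveolar macrophages (-1.45), neutrophils (-1.28) and NK cells (-3.61), for Ccl6 in alveolar macrophages (-0.60) and for Ccl2 in classical monocytes (-1.79) and dendritic cells (-1.55). It was positive for Ccl6 in dendritic cells (1.49), where Ccl6 fell less in KO, and for Ccl2 in stromal cells (4.00). The alveolar macrophage differences of Ccl9 and Ccl6 passed the test under every alternative that could test them, at -1.56 to -1.34 and -0.68 to -0.52, while dendritic cell Ccl6 and neutrophil Ccl9 each changed sign under at least 1. The other 4 kept their sign but missed the test under at least 1, with classical monocyte Ccl2 at -1.54 (cells gated one by one), dendritic cell Ccl2 at -1.53 (without KO LPS replicate 2), NK cell Ccl9 at -2.76 (cells gated one by one) and stromal Ccl2 at 4.06 (DESeq2), 1.93 (no doublet removal) and 4.93 (stricter cell quality). The KO LPS libraries held Xist-marked and Y-marked cells, KO vehicle held Xist-marked and WT vehicle Y-marked cells, so genotype and mark cannot be told apart here.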

How the results depend on the processing

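The counts of called pairs were recomputed under each alternative. LPS against vehicle had 45 higher and 5 lower pairs, with 35 to 44 and 4 to 6 when 1 library was left out, 28 higher in Xist-only cells and 3 lower with stricter cell quality. KO against WT under LPS had 4 higher and 24 lower pairs, with 4 to 5 and 20 to 26 when 1 library was left out. It had 2 higher without doublet removal and 2 with stricter quality, 11 lower with DESeq2, which gave 8 of the 28 called pairs no adjusted p, and 13 lower in Xist-only cells. The difference in response had 2 higher and 6 lower pairs, with 2 to 3 and 5 to 10 when 1 library was left out (10 without KO LPS replicate 1). It had 1 higher with DESeq2, 1 with stricter quality and 0 without doublet removal, and 3 lower with DESeq2, with no adjusted p for 2 of the 8. Thinning left 5 of 7 leading cell types. Of the called pairs, 36 of 50, 12 of 28 and 2 of 8 in the 3 comparisons passed under every alternative chosen at the start that could test them.

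Some called values changed sign. Without doublet removal, the LPS change of Ccl6 was -0.011 in endothelial cells and 0.31 in interstitial macrophages. In KO against WT, Ccl6 was -0.41 in dendritic cells and -0.17 in interstitial macrophages, and Ccl7 0.18 in endothelial cells. The difference in response was -0.17 for dendritic cell Ccl6 and 0.34 for neutrophil Ccl9. With cells gated one by one, the Ccl6 change in interstitial macrophages was 0.0053 and the neutrophil Ccl9 difference in response 1.25. In Xist-only cells the neutrophil LPS change was -0.090 for Ccl12 and -2.28 for Ccl9, and KO against WT for Ccl6 in interstitial macrophages -0.20. Plain CPM scaling gave -1.20 for neutrophil Ccl9, and it raised the median of all genes in KO against WT by 0.053 to 0.35. Without WT vehicle replicate 1, the LPS change of Ccl9 was -0.28 in neutrophils and -0.054 in NK cells, and leaving out each library in turn gave up to 0.99 and 3.55. The cause was not tested.

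The correlation of same-numbered LPS libraries' deviations ran from -0.47 in alveolar macrophages to 0.24 in neutrophils, so the numbers are not read as pairs. With the replicate block KO against WT had 5 higher and 23 lower pairs, and with the crossed pairing 5 higher and 25 lower. Classical monocytes could not be tested at stricter quality, and the difference in response could not be estimated without a vehicle library or in Xist-only cells, where the LPS change comes from KO alone. In Ccl7 and Ccl12 the vehicle counts of 0 to 3 UMIs limit how large a fold can be told.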
